A study of Homo sapiens with 34 samples.

Results

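The nuclear-encoded subunits of the respiratory chain were followed in LNCaP cells, an established human prostate cancer line, under androgen-dependent and androgen-independent growth. Members were the protein-coding genes of the RNA-seq table whose symbols begin as those of complex I (NDUFA, NDUFB, NDUFC, NDUFS or NDUFV with a number), complex II (SDHA to SDHD), complex III (UQCR), complex IV (COX4 to COX8) or the ATP synthase (ATP5), without NDUFA4L2. The rule used names and no measured value. It found 75 of the 28071 genes listed, namely 34 of complex I, 4 of complex II, 8 of complex III, 14 of complex IV and 15 of the ATP synthase, and 73 of them were also among the 25035 genes of the RNA immunoprecipitation (RIP) table. The names also take in ATP5S and ATP5SL, which are not subunits of the enzyme, the readthrough gene ATP5J2-PTCD1, ATP5EP2, whose name is that of a pseudogene, and COX7A2L, a factor that joins complexes III and IV. NDUFA4 is counted here with complex I by its name, although its protein is found in complex IV.

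The series held 34 samples. AI cells (LNCaP of androgen-independent growth, kept in RPMI1640 with charcoal-stripped serum) were set against AD cells (LNCaP of androgen-dependent growth, in RPMI1640). RNA-seq of polyadenylated RNA had 2 libraries in each of 6 groups, which were AI cells 24 h after siRNA against EZH2 (siEZH2), AI cells 24 h after a mock siRNA, untreated AI cells, and the same 3 groups of AD cells. EZH2 is the histone methyltransferase that places H3K27me3, a mark of gene silencing. RIP after ultraviolet crosslinking had 2 libraries each with an EZH2 antibody and with IgG in AI and in AD cells, and chromatin immunoprecipitation (ChIP) gave 1 EZH2 peak list for AI cells, 2 for AD cells and 2 H3K27me3 peak lists for each. The 7 inputs were not analysed separately. Sample titles gave the groups. The treatment protocol names LNCaP/abl as the line that was transfected, so the AD siEZH2 and AD mock groups rest on titles alone. The labels do not say that replicates came from separate cultures, and the p-values then measure only the spread between these libraries.

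Oxidative phosphorylation couples the oxidation of fuel to the making of ATP in mitochondria. Complex I (NADH dehydrogenase) and complex II (succinate dehydrogenase) pass electrons from the citric acid cycle to ubiquinone, complex III passes them on to cytochrome c and complex IV to oxygen, and the proton gradient so made drives the ATP synthase. Every complex but complex II combines proteins made from nuclear genes with proteins encoded in mitochondrial DNA, so the mRNAs of both genomes are needed. Normal prostate epithelium is known for exporting citrate rather than oxidising it, and prostate cancer cells for oxidising more of it.

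Depth cannot be read from RPKM (reads scaled to gene length and to the reads of the library). The transfected libraries and the untreated ones differed in make-up. All mitochondrially encoded genes took 18.4% to 33.4% of summed RPKM in the 4 untreated libraries, against 2.1% to 4.07% in the 8 transfected ones. Among untreated libraries the share was 33.4% in AI and 32.6% in AD replicate 2, against 19.6% in AI and 18.4% in AD replicate 1. Genes above 0 RPKM numbered 16254 to 17101 in transfected AI libraries and 18266 to 18904 in transfected AD libraries. Cytosolic ribosomal protein mRNAs took 10.5% to 11.1% of the RPKM outside mitochondrially encoded genes in transfected AI libraries, against 4.90% to 5.21% in transfected AD libraries. Untreated replicate 2 stood apart in both lines, with 62 of the 70 members tested below replicate 1 in AI cells and 57 of 70 in AD cells (median log2 differences of -0.51 and -0.44). EZH2, the siRNA target, had 3.6 and 4.33 RPKM in AI siEZH2 against 7.07 and 5.44 in AI mock libraries (limma adjusted p = 0.126), and 11.5 and 10.7 RPKM in the libraries labelled AD siEZH2 against 10.9 and 12.5 in AD mock libraries (adjusted p = 1). The siRNA labels of the AD libraries therefore had no check in the level of EZH2. The luminal marker KLK3 (prostate-specific antigen) was at 1286 RPKM or more in every library, and the basal marker KRT5 was at 0.05 RPKM or less.

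The subunit mRNAs were among the abundant ones of these cells. The 75 members made up 3.71% and 3.86% of summed RPKM in AI siEZH2, 3.83% and 3.87% in AI mock and 2.31% and 1.49% in AI untreated libraries, against 2.67% and 2.73% in AD siEZH2, 2.68% and 2.52% in AD mock and 2.75% and 1.60% in AD untreated libraries. In complex I the highest mean over the 12 libraries was that of NDUFS5, an accessory subunit, at 1104 RPKM, followed by NDUFB10 at 575 RPKM. In the ATP synthase ATP5B, the catalytic beta subunit, averaged 938 RPKM and ATP5I, the membrane subunit e, 646 RPKM. COX5B and COX4I1, 2 nuclear subunits that surround the catalytic core of complex IV, averaged 646 and 476 RPKM. UQCRQ led complex III at 327 RPKM, and SDHB, the iron-sulfur subunit, led complex II at 77.2 RPKM. Subunits that stand in fixed ratio in the finished complexes had RPKM values that spread widely. UQCRFS1, the Rieske iron-sulfur protein of complex III, averaged 4.73 RPKM and NDUFA9 of complex I 2.12 RPKM. The part of read counting in such differences between genes was not tested.

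Of the 75 members, 70 passed the filter of 0.5 RPKM in at least 2 libraries. NDUFA11, COX4I2, COX6B2, UQCRHL and ATP5EP2 did not. Isoforms that replace a common subunit in certain tissues were near 0. COX4I2, the lung isoform beside COX4I1, was listed at 0 in 11 libraries and at 0.19 RPKM in 1. COX6B2, the testis isoform beside COX6B1, reached at most 0.09 RPKM, whereas COX6B1 averaged 211 RPKM over the 12 libraries. COX7B2, a testis isoform beside COX7B, was at 0 to 1.55 RPKM, and the AI siEZH2 replicates alone had 1.55 and 0 RPKM. NDUFA11 is a subunit that the complex needs in all tissues and was nevertheless listed at 0 to 0.13 RPKM, and no source used here says how overlapping genes were counted. For 14 members the table also held 23 genes named as their processed copies, of which the highest averaged 3.08 RPKM (a copy of COX5B).

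H3K27me3 peaks within 1 kb of a start were found at few of these genes. A RefSeq start site (GRCh38.p14, the files' build being GRCh38) was at hand for 59 members and 13105 protein-coding genes of the RNA-seq table. H3K27me3 peaks lay within 1 kb of 2 of the 59 member starts (3.39%) in each of the 4 peak lists, against 6.23% and 15.9% of all starts in the AI lists and 7.90% and 9.61% in the AD lists. The 2 members were COX6B2 and COX7B2 in every list, the testis isoforms described above, and their starts lay inside a peak each time. The region before each of these starts is shown because they were the H3K27me3-marked members, COX6B2 at chr19:55354720-55354969 on the minus strand and COX7B2 at chr4:46909246-46909495 on the minus strand (RefSeq, GRCh38.p14, the 250 bases before the start, 5′ to 3′ in the direction of the gene, with no capitals since no searched word was found):
COX6B2: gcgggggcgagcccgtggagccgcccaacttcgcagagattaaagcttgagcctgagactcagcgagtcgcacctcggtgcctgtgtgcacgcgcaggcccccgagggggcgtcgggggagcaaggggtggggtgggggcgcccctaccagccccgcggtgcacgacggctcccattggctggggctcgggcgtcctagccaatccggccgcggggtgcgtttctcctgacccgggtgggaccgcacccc
COX7B2: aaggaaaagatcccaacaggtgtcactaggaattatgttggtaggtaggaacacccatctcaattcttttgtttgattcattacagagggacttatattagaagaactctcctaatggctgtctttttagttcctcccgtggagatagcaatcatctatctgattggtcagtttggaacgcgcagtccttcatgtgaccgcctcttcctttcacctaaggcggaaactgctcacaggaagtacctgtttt

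EZH2 peaks within 1 kb were found at 0 of 59 members in AI cells (1.31% of all starts) and at 1 of 59 (1.69%) in each AD list (10.9% and 2.74% of all starts), NDUFS8 in the first and NDUFB2 in the second. Neither NDUFS8 nor NDUFB2 was shared by the 2 lists. Scores and peaks are the authors' own, each list was called on 1 sample, and the lists differed in length from 11933 to 53911 EZH2 peaks and from 70791 to 124079 H3K27me3 peaks. A window of 5 kb took in more members, 3 in AI cells and 18 and 8 in AD cells for EZH2, and 8 and 9 in AI cells and 6 and 4 in AD cells for H3K27me3. In that window the EZH2 shares were 5.08% of members against 7.09% of all starts in AI cells, and 30.5% and 13.6% of members against 29.3% and 10.6% of all starts in AD cells. The H3K27me3 shares in that window were 13.6% and 15.3% of members against 11.97% and 20.5% of all starts in AI cells, and 10.2% and 6.78% of members against 12.1% and 13.1% of all starts in AD cells.

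Words known from promoters of respiratory genes were searched on both strands in the 250 bases before the start. The palindromic word of NRF1, an activator of respiratory genes, was in 3 of 59 members (5.08%: ATP5C1, NDUFB4 and SDHD) and in 1.89% of the 13105 promoters. CCGGAAGT or ACTTCCGG, the word of ETS factors such as GABPA, was in 9 members (15.3%) and in 6.62% of all promoters. AAGATGGC or GCCATCTT, the word of YY1, was in 1 member (1.69%, ATP5J) and in 1.89% of all promoters. The words are distinct from one another, 11 members (18.6%) held any of them against 9.89% of all promoters, and a word in a promoter is a description of its letters. None of the words was in ATP5E, COX7A2L, COX7C, COX7B or NDUFA6, the members with the largest called rises in AI mock cells, nor in COX6A1 or ATP5I. COX8A and COX5B are shown as examples of members that hold the ETS word, in capitals, 19 and 37 bases before the start, and were picked for it with their values known (COX8A at chr11:63974370-63974619 and COX5B at chr2:97645812-97646061, both plus strand, RefSeq, GRCh38.p14):
COX8A: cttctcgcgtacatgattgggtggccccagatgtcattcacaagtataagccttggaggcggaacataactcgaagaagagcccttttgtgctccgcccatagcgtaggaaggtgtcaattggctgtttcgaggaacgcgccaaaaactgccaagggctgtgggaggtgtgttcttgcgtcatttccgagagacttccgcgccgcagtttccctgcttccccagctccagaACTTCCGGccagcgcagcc
COX5B: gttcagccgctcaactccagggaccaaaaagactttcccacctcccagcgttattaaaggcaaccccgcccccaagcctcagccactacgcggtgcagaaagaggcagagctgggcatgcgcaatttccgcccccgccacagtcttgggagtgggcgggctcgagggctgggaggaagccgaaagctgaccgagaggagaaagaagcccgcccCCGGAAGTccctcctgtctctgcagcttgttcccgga

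Among mock-transfected cells most subunit mRNAs that passed the test were higher in AI than in AD cells. Of the 70 members tested, 34 were higher and 2 lower in AI mock (limma-trend on log2(RPKM + 0.5), adjusted over 14227 genes, threshold 0.05). Of all genes tested, 12.2% were higher and 43.5% lower. Trimmed mean scaling gave 55 higher and 0 lower, and a fit to the mock libraries alone 53 higher and 3 lower. The higher count fell below that of the main fit when any 1 mock library was left out. The median member difference was 0.59 on the log2 scale, whereas the median over all genes was -0.41, which puts the median member 1.00 above it. The all-gene median moved to -0.03 with trimmed mean scaling and 0.02 with quantile normalization, and the member median was 0.43 to 1.07 under the scalings tried. Cytosolic ribosomal protein mRNAs were higher in the same comparison (66 of 71 tested, median 1.33), and their part in the subunit result was not tested. In bulk RNA a change in the mix of cells and a change in RNA per cell cannot be told apart.

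**Figure D1:**
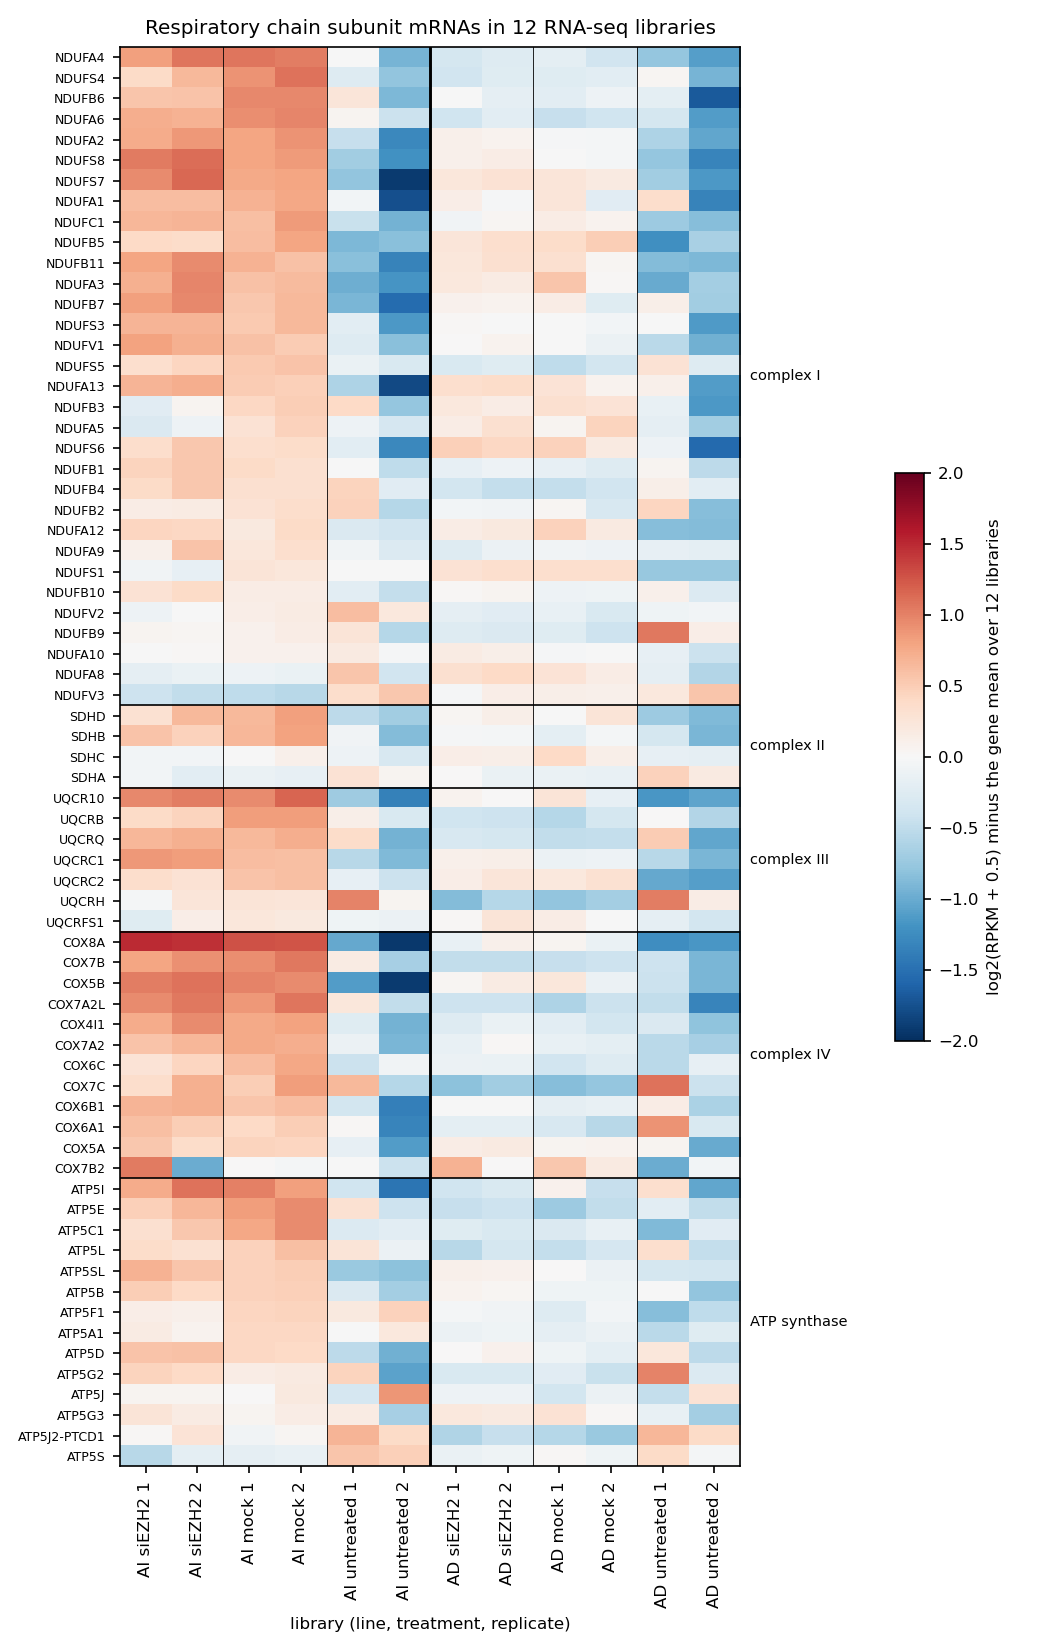
Level of 69 of the 70 members tested in the 12 RNA-seq libraries, as log2(RPKM + 0.5) minus the gene's mean over all libraries (colour, red above and blue below), with members in rows by complex and libraries in columns. The AI siEZH2 and AI mock columns are red for most members, and both untreated replicate 2 columns are blue for most.

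Of the 12 members of complex IV tested, 8 were higher in AI mock and 0 lower, with a median of 0.97 on the log2 scale, and the summed RPKM of all 14 members of the complex was 3696 and 3862 in AI mock against 1916 and 1746 in AD mock libraries. COX8A, a small membrane subunit, had 415 and 407 RPKM in AI mock against 177 and 155 RPKM in AD mock (log2 difference 1.31 ± 0.24 SE, limma adjusted p = 0.0012). Both AI values lay above both AD values. COX7B, another small subunit, had 80.2 and 87.5 RPKM in AI mock against 30.1 and 31.1 RPKM in AD mock (1.44 ± 0.24, limma adjusted p = 0.000701). COX7A2L, the supercomplex factor, had 54.2 and 62.3 RPKM in AI mock against 18.9 and 21.6 RPKM in AD mock (1.50 ± 0.27, limma adjusted p = 0.00117). COX4I1, which binds ATP and takes part in the control of the enzyme, rose too, at 736 and 754 RPKM in AI mock against 376 and 337 RPKM in AD mock (1.07, limma adjusted p = 0.0031). COX7C reached 488 and 621 RPKM in AI mock against 192 and 202 RPKM in AD mock (1.48, limma adjusted p = 0.0226), but leaving out any 1 of the 4 mock libraries gave an adjusted p of 0.0527 to 0.111. COX5B, at 1082 and 1046 RPKM in AI mock against 630 and 500 RPKM in AD mock (0.92, limma adjusted p = 0.0102), had an adjusted p of 0.0769 without AD mock replicate 2, of 0.0513 without AI mock replicate 1 and of 0.23 with quantile normalization. COX5A, the partner of COX5B, did not pass the test at 123 and 122 RPKM in AI mock against 93.3 and 94.8 RPKM in AD mock (0.38, limma adjusted p = 0.379).

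**Figure D2:**
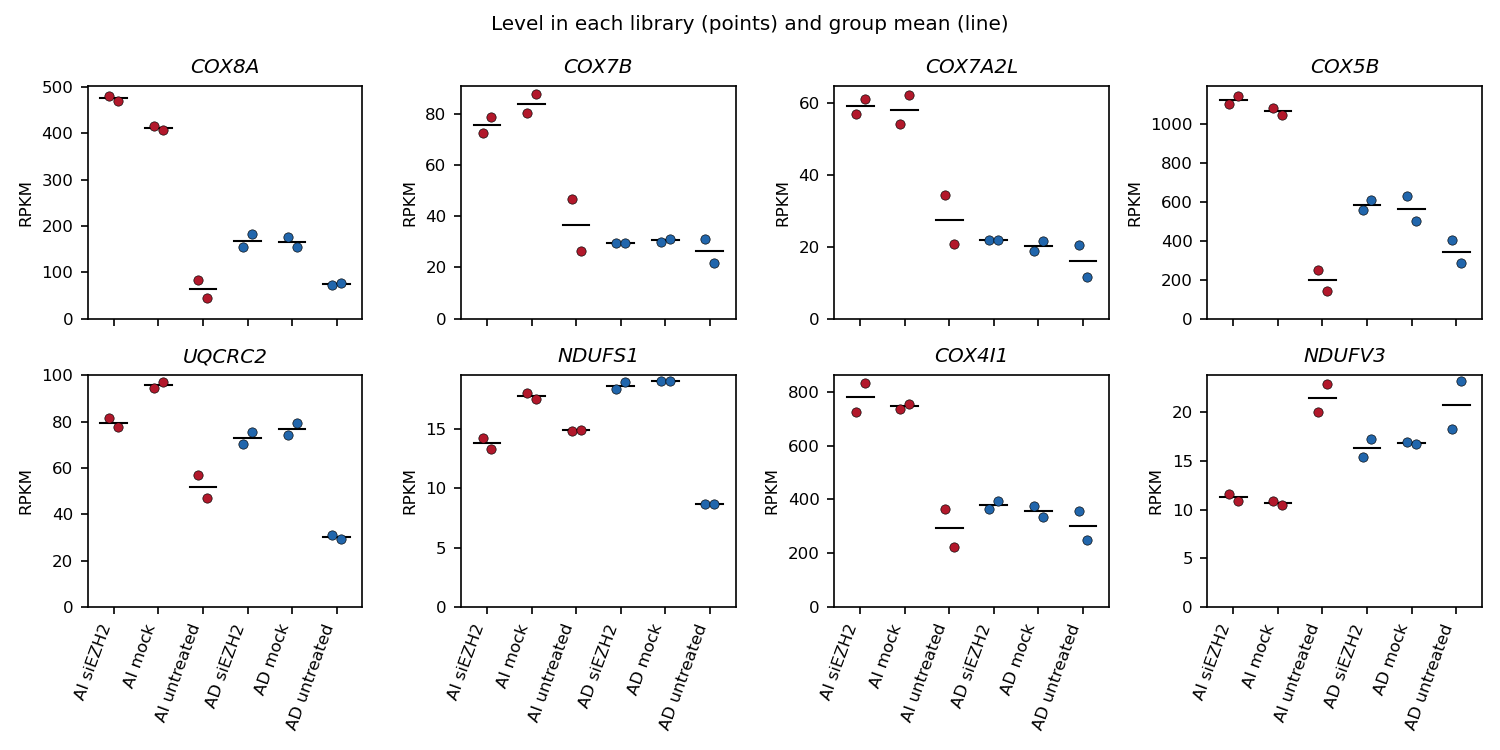
RPKM (linear axes from 0) of 8 members in every RNA-seq library, as points with the group mean as a line, AI groups in red and AD groups in blue. COX8A, COX7B, COX7A2L, COX5B and COX4I1 are highest in the transfected AI libraries, whereas NDUFV3 is lowest there.

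Complex III had 5 of 7 members higher in AI mock and 0 lower, with a median of 0.98. UQCRB, a small subunit at the ubiquinone site, had 69.4 and 69.8 RPKM in AI mock against 25.9 and 30.4 RPKM in AD mock (1.29 ± 0.19, limma adjusted p = 0.000361). UQCRC1, a core protein of the matrix side, had 368 and 364 RPKM in AI mock against 220 and 222 RPKM in AD mock (0.73, limma adjusted p = 0.0017). The other core protein, UQCRC2, differed less, at 94.4 and 96.9 RPKM in AI mock against 74.2 and 79.2 RPKM in AD mock (0.32, limma adjusted p = 0.0351), and leaving out any 1 of the 4 mock libraries gave an adjusted p of 0.0684 to 0.158. The catalytic UQCRFS1 did not pass the test, at 5.59 and 5.41 RPKM in AI mock against 5.23 and 4.67 RPKM in AD mock (0.14, limma adjusted p = 0.468).

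The ATP synthase had 7 of 14 members higher in AI mock and 0 lower, with a median of 0.56. They were ATP5A1, ATP5C1, ATP5E, ATP5F1 and ATP5L, which are subunits, beside ATP5SL and the readthrough ATP5J2-PTCD1. ATP5E, the epsilon subunit of the central stalk, had 89.3 and 96.4 RPKM in AI mock against 29.9 and 35.0 RPKM in AD mock (1.50 ± 0.21, limma adjusted p = 0.000217), the largest difference of a called member. ATP5C1, the gamma subunit that turns within the head, had 150 and 169 RPKM in AI mock against 71.7 and 79.0 RPKM in AD mock (1.07, limma adjusted p = 0.000913). ATP5A1, the alpha subunit, had 197 and 199 RPKM in AI mock against 132 and 136 RPKM in AD mock (0.56, limma adjusted p = 0.00339), and its adjusted p was 0.1 with quantile normalization. Its catalytic partner ATP5B, at 1242 and 1256 RPKM in AI mock against 851 and 851 RPKM in AD mock, missed the threshold (0.55, limma adjusted p = 0.0614), and with quantile normalization its difference turned to -0.45. Those genes of the proton-carrying c ring that were among the members did not pass the test. ATP5G2 had 47.9 and 48.9 RPKM in AI mock against 36.6 and 31.5 RPKM in AD mock. ATP5G3 had 9.74 and 10.5 RPKM in AI mock against 11.6 and 9.60 RPKM in AD mock. ATP5G1 was not among the members.

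Complex I was mixed, with 12 of 33 members higher and 2 lower in AI mock and a median of 0.46. NDUFA6, an accessory subunit beside the ubiquinone site, had 257 and 265 RPKM in AI mock against 97.3 and 102 RPKM in AD mock (1.38 ± 0.23, limma adjusted p = 0.000676). NDUFA4 had 42.0 and 40.4 RPKM in AI mock against 17.2 and 15.1 RPKM in AD mock (1.33, limma adjusted p = 0.00151). NDUFS4, whose loss in humans causes complex I deficiency, had 270 and 306 RPKM in AI mock against 122 and 125 RPKM in AD mock (1.21, limma adjusted p = 0.00468). Of the members that fell, NDUFV3, an accessory subunit of the NADH-oxidising module, had 10.8 and 10.5 RPKM in AI mock against 16.9 and 16.8 RPKM in AD mock (-0.63 ± 0.13, limma adjusted p = 0.00264). The fall of NDUFV3 did not pass the test with trimmed mean scaling (-0.16) or with quantile normalization (-0.23).

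Core electron-transfer subunits of complex I did not move as 1 group. NDUFS8, an iron-sulfur subunit, was higher, at 426 and 449 RPKM in AI mock against 245 and 242 RPKM in AD mock (0.84, limma adjusted p = 0.00458). NDUFV1, which binds NADH, had 479 and 454 RPKM in AI mock against 318 and 295 RPKM in AD mock (0.60, limma adjusted p = 0.0217), and NDUFV2, its partner, 31.4 and 32.2 RPKM in AI mock against 25.9 and 23.1 RPKM in AD mock (0.37, limma adjusted p = 0.0368). Leaving out any 1 of the 4 mock libraries took NDUFV1 to an adjusted p of 0.0585 to 0.102 and NDUFV2 to 0.0548 to 0.186. NDUFS1, NDUFS3 and NDUFS7 did not pass the test, with log2 differences of -0.10, 0.62 and 0.56. The 4 subunits of complex II were divided, with 1 membrane anchor and 1 matrix subunit higher. The iron-sulfur subunit SDHB had 114 and 126 RPKM in AI mock against 63.0 and 70.3 RPKM in AD mock (0.85, limma adjusted p = 0.014), and the membrane anchor SDHD 13.7 and 15.4 RPKM in AI mock against 8.53 and 10.3 RPKM in AD mock (0.60, limma adjusted p = 0.00754). Without AD mock replicate 1 their adjusted p was 0.0773 for SDHB and 0.0654 for SDHD, and without AI mock replicate 2 it was 0.0754 for SDHB and 0.0581 for SDHD. The flavoprotein SDHA and the other anchor SDHC did not pass the test, with log2 differences of -0.01 and -0.21.

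**Figure D3:**
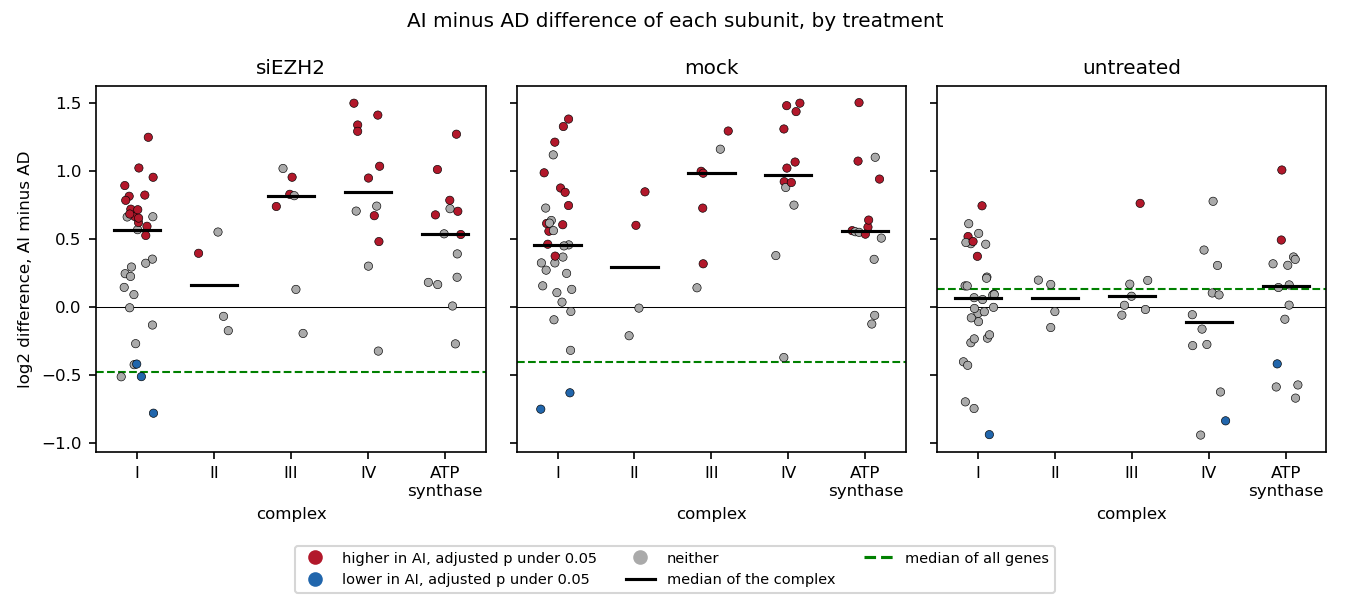
Log2 difference, AI minus AD, of each of the 70 members tested (points) by complex in siEZH2, mock and untreated libraries, red where higher and blue where lower in AI at an adjusted p under 0.05, with the complex median as a black line and the median of all genes as a dashed green line. The complex medians lie above the all-gene medians of -0.48 and -0.41 in the siEZH2 and mock panels, and around the all-gene median of 0.13 in the untreated panel.

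The same comparison after siEZH2 gave 33 members higher and 3 lower in AI siEZH2 than in AD siEZH2 libraries of the 70 tested, beside 10.6% higher and 47.1% lower of all genes, with a member median of 0.61 and an all-gene median of -0.48. Of these, 28 members were higher and 2 lower in both the siEZH2 and the mock comparison. The share of all genes called in both is not given here. The siEZH2 and mock comparisons share no library. They set the same 2 lines against each other and were tested in 1 fit with a shared spread, so they are not independent evidence. By complex, 15 of 33 members of complex I, 1 of 4 of complex II, 3 of 7 of complex III, 8 of 12 of complex IV and 6 of 14 of the ATP synthase were higher. COX8A had 480 and 470 RPKM in AI siEZH2 against 155 and 182 RPKM in AD siEZH2 (1.50 ± 0.24, limma adjusted p = 0.000515), and ATP5I 945 and 1192 RPKM in AI siEZH2 against 424 and 455 RPKM in AD siEZH2 (1.27, limma adjusted p = 0.0314). Among those that fell were NDUFV3, with -0.51 but 0.03 with trimmed mean scaling, and NDUFS1, at 14.3 and 13.3 RPKM in AI siEZH2 against 18.3 and 18.9 RPKM in AD siEZH2 (-0.42, limma adjusted p = 0.00327), and NDUFS1 turned to 0.01 with quantile normalization and to 0.12 with trimmed mean scaling. Rescaling without mitochondrially encoded genes gave 28 higher and 7 lower. The count of higher members was 17 without AD siEZH2 replicate 1, 21 without AD siEZH2 replicate 2 and 17 without AI siEZH2 replicate 2, and ATP5I lost its call without any 1 of the 4 siEZH2 libraries (adjusted p of 0.0627 to 0.138). NDUFV3 lost it without AD siEZH2 replicate 2 (limma adjusted p = 0.0655).

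No member passed the test between siEZH2 and mock libraries, and EZH2 itself did not pass it in either line. In AI cells 0 of 70 members were called against mock, beside 0.0703% of all genes higher and 1.39% lower. At an unadjusted p under 0.05 there were 0 members higher and 5 lower, beside 18.8% of all genes in either direction (limma). The 5 were NDUFS1 at 14.3 and 13.3 RPKM in AI siEZH2 against 18.0 and 17.6 RPKM in AI mock (-0.36 ± 0.09, limma adjusted p = 0.0815), NDUFA5 (-0.58), ATP5C1 (-0.43), ATP5A1 (-0.29) and UQCRC2 (-0.26). A fit to these 2 groups alone called 6 higher and 11 lower, and leaving out 1 library called 0. In the libraries labelled AD siEZH2 0 of 70 members were called against AD mock, beside 0.0141% of all genes higher and 0% lower. At an unadjusted p under 0.05 there were 0 members, beside 3.82% of all genes in either direction (limma). The siEZH2 minus mock difference, compared between the libraries labelled AI and AD, was called for 0 members and 0 genes. At an unadjusted p under 0.05 it was higher for 0 members and lower for 2, beside 6.86% of all genes in either direction (limma).

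Untreated cells showed another picture. Of the 70 members, 7 were higher and 3 lower in untreated AI than in untreated AD cells, beside 22.2% higher and 12.4% lower of all genes, and the median member difference was 0.07 beside 0.13 over all genes. That median turned to -0.01 with quantile normalization, where 4 were higher and 6 lower, and to -0.10 with trimmed mean scaling, where 3 were higher and 6 lower. The risers were ATP5F1, subunit b of the peripheral stalk, at 30.1 and 36.3 RPKM in untreated AI against 14.2 and 18.3 RPKM in untreated AD cells (1.01 ± 0.14, limma adjusted p = 0.000646), UQCRC2 at 57.1 and 47.0 RPKM in untreated AI against 31.1 and 29.6 RPKM in untreated AD cells (0.76, limma adjusted p = 0.000839), NDUFS1 at 14.8 and 14.9 RPKM in untreated AI against 8.68 and 8.69 RPKM in untreated AD cells (0.74, limma adjusted p = 0.000325), NDUFA12, ATP5A1, NDUFV2 and NDUFA10. COX5B was lower, at 250 and 144 RPKM in untreated AI against 402 and 286 RPKM in untreated AD cells (-0.84, limma adjusted p = 0.0265), as were NDUFB7 (-0.94) and ATP5SL (-0.42). Of the members higher in AI mock cells, 4 were also higher and 2 were lower in untreated AI cells.

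The untreated counts depended on single libraries of either replicate number. They were 15 higher and 1 lower without AI untreated replicate 2, and 12 lower without AD untreated replicate 2 or without AI untreated replicate 1, and 1 lower without AD untreated replicate 1. With neither untreated replicate 2 library, 18 were higher and 12 lower. Without AI untreated replicate 2 or without AD untreated replicate 1, COX5B had log2 differences of -0.44 and -0.59 (limma adjusted p of 0.147 in both), NDUFB7 of -0.62 and -0.53 (0.145 in both) and ATP5A1 of 0.38 and 0.34 (0.062 and 0.0637). NDUFV2 was at 0.46 without AD untreated replicate 1 and at 0.28 without AI untreated replicate 1 (limma adjusted p of 0.0712 and 0.0921). Each of these 4 kept its direction and lost its call. A fit to the untreated libraries alone gave 2 higher and 0 lower. Same-numbered untreated libraries correlated at 0.7, and fits with a replicate block are given below with the other processing alternatives.

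Set against untreated cells, mock-transfected AI cells had more of most subunit mRNAs. In AI cells 44 of 70 members were higher and 3 lower in mock than in untreated libraries, beside 21.5% higher and 35.5% lower of all genes, with a member median of 0.96 and an all-gene median of -0.20. Rescaling without mitochondrially encoded genes, whose share fell between these libraries, gave 35 higher and 8 lower with a member median of 0.55. By complex, 23 of 33 members of complex I, 2 of 4 of complex II, 4 of 7 of complex III, 9 of 12 of complex IV and 6 of 14 of the ATP synthase were higher. COX8A was at 415 and 407 RPKM in AI mock against 84.0 and 44.1 RPKM in untreated AI cells (2.74 ± 0.24, limma adjusted p = 1.21e-05), and COX5B at 1082 and 1046 RPKM in AI mock against 250 and 144 RPKM in untreated AI cells (2.49 ± 0.25). NDUFS7, an iron-sulfur subunit next to the ubiquinone site, had 34.1 and 34.7 RPKM in AI mock against 11.3 and 4.92 RPKM in untreated AI cells (2.13). NDUFV3 fell, to 10.8 and 10.5 RPKM in AI mock against 20.0 and 22.8 RPKM in untreated AI cells (-0.97, limma adjusted p = 0.000193). ATP5S and ATP5J2-PTCD1 were lower too, the second of which shares sequence with its 2 parent genes and lost its call in 2 omissions of a library (limma adjusted p of 0.0681 and 0.0725). The lower count was 6 without AI untreated replicate 2.

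In AD cells the same contrast gave 21 members higher and 5 lower in mock than in untreated libraries, beside 37.6% higher and 7.73% lower of all genes, so the share of higher members was near that of all genes. The member median of 0.34 lay beside an all-gene median of 0.35 and turned to -0.04 with trimmed mean scaling, where 12 were higher and 13 lower. Quantile normalization gave 17 higher and 12 lower, and rescaling without mitochondrially encoded genes 17 higher and 11 lower. NDUFB5, a membrane-arm accessory subunit, had 24.0 and 26.3 RPKM in AD mock against 7.65 and 11.6 RPKM in untreated AD cells (1.37 ± 0.17, limma adjusted p = 0.000187), and UQCRC2 74.2 and 79.2 RPKM in AD mock against 31.1 and 29.6 RPKM in untreated AD cells (1.32 ± 0.11). UQCRH, the hinge protein of complex III, fell, to 43.8 and 47.0 RPKM in AD mock against 155 and 84.3 RPKM in untreated AD cells (-1.32, limma adjusted p = 0.00834), with an adjusted p of 0.054 without AD untreated replicate 1. The other fallers were ATP5J2-PTCD1 (-1.17), NDUFB9 (-0.92), SDHA (-0.46) and NDUFS5 (-0.46, limma adjusted p = 0.0493), of which NDUFS5 turned to 0.37 with quantile normalization. The counts were 32 higher and 2 lower without AD untreated replicate 1, 9 lower without AD untreated replicate 2 and 2 lower without AD mock replicate 1 or without AD mock replicate 2. Leaving out 1 library also ended the calls of NDUFB9 (adjusted p of 0.0753 to 0.198 in 3 omissions), SDHA (0.0568 to 0.0745 in 3) and NDUFS5 (0.0976 to 0.264 in 3), all by limma. Transfection, its culture and the sequencing experiment cannot be told apart in either line.

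The gap between AI and AD cells itself differed between mock and untreated libraries for 29 members. Of the 70 tested, 24 had a more positive and 5 a more negative AI minus AD difference in mock than in untreated libraries (limma, difference of the 2 differences), beside 8.99% and 41.2% of all genes. Complex IV held 8 of the 24 and the ATP synthase 6. Called higher in mock and lower in untreated AI cells were COX5B and ATP5SL. COX5B had a log2 difference of 0.92 in mock and -0.84 in untreated libraries, a change of 1.76 ± 0.35 (limma adjusted p = 0.00249), and each of the first 2 calls was lost in 2 omissions of a library. ATP5SL had 0.54 in mock and -0.42 in untreated libraries, a change of 0.96 ± 0.14 (limma adjusted p = 0.00053). COX8A had 1.31 in mock and -0.28 in untreated libraries, a change of 1.59 ± 0.34 (limma adjusted p = 0.00364). NDUFS1 turned the other way, with -0.10 in mock and 0.74 in untreated libraries, a change of -0.84 ± 0.13 (limma adjusted p = 0.0006). Trimmed mean scaling gave 49 and 0. The higher count was 15 without AD untreated replicate 1, 15 and 10 without AD mock replicate 1 and 2, 40 and 12 without AI untreated replicate 1 and 2, and 13 and 11 without AI mock replicate 1 and 2. The lower count was 2 without AD mock replicate 1 or AI mock replicate 1, and 3 without replicate 2 of either.

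**Figure D4:**
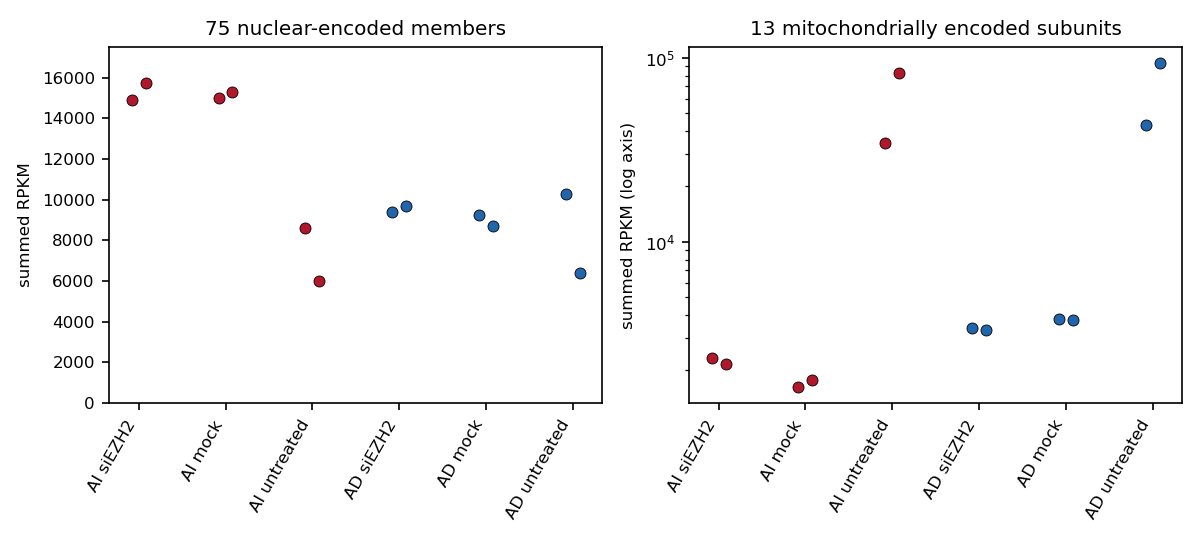
Summed RPKM of the 75 nuclear-encoded members (left, linear axis from 0) and of the 13 subunits encoded in mitochondrial DNA (right, log axis) in every RNA-seq library, AI in red and AD in blue. The nuclear-encoded sum is highest in the 4 transfected AI libraries, at 14889 to 15732 RPKM, whereas the mitochondrially encoded sum is lowest there, at 1622 to 2326 RPKM.

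The summed RPKM of the subunits encoded in mitochondrial DNA was 1622 and 1776 in AI mock against 3785 and 3755 in AD mock libraries, and of the 13 tested 0 were higher and 7 lower in AI mock (limma), with a median of -1.45, beside the 43.5% of all genes that were lower. All mitochondrially encoded genes together, those that code for no protein included, took 3.94% and 4.07% of summed RPKM in AI mock against 2.37% and 2.45% in AD mock libraries. MT-ND4, a complex I subunit, did not pass the test at 333 and 356 RPKM in AI mock against 265 and 269.5 RPKM in AD mock (0.36, limma adjusted p = 0.53). MT-CYB, the mitochondrially encoded core of complex III, had 70.2 and 74.9 RPKM in AI mock against 564 and 490 RPKM in AD mock (-2.85 ± 0.20, limma adjusted p = 4.23e-06), whereas nuclear-encoded members of the same complex were higher as given above. MT-CO1, the catalytic subunit of complex IV, did not pass the test at 72.5 and 77.7 RPKM in AI mock against 78.3 and 92.4 RPKM in AD mock (-0.18, limma adjusted p = 0.583). Untreated libraries held far more, with sums of 34616 and 82521 RPKM in untreated AI and 43120 and 93612 RPKM in untreated AD cells, and all 13 were lower in mock than in untreated libraries in both lines.

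Genes that build or serve the chain were divided. Among 48 assembly factors tested, 10 were higher and 14 lower in AI mock than in AD mock, with a median of 0.02. NDUFAF1 and TIMMDC1, which help to assemble complex I, were lower (-1.66 and -1.64), as was SCO1, a copper chaperone of complex IV (-1.37), whereas NDUFAF2 and UQCC2, assembly factors of complexes I and III, were higher (1.13 and 0.75). Cytochrome c (CYCS, 0.75), cytochrome c1 of complex III (CYC1, 0.90) and COQ4, which acts in ubiquinone synthesis, (1.16) were the 3 of 14 electron carrier and inhibitor genes that were higher, and 4 were lower. Of 12 regulators of respiratory genes 0 were higher and 6 lower, among them the coactivator PPRC1, at 0.98 and 0.98 RPKM in AI mock against 7.76 and 6.86 RPKM in AD mock (-2.40), MYC (-1.65), the nuclear receptor ESRRA (-0.84) and TFAM, which packages and transcribes mitochondrial DNA (-0.51). Of 16 citric acid cycle genes 6 were higher and 4 lower, and of 75 mitochondrial ribosomal proteins 22 were higher and 7 lower (all limma, beside the same shares of all genes as above). These lists were chosen with earlier results known and are given as counts.

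In the RIP libraries no subunit mRNA passed the test for binding to EZH2. In AI cells 0 of 69 members were called between EZH2 and IgG libraries, as were 0% of the 13667 genes tested in either direction. At an unadjusted p under 0.05 there were 6 members higher and 4 lower, beside 21.4% of all genes in either direction (limma). SDHA had 8.91 and 4.72 RPKM in AI EZH2 RIP and was listed at 0 in both AI IgG libraries (limma adjusted p = 0.109), and UQCRC1 had 8.99 and 25.3 RPKM in AI EZH2 RIP against 3.28 and 0 RPKM in AI IgG (3.51, limma adjusted p = 0.114). NDUFB3 went the other way, with 0.15 and 0.52 RPKM in AI EZH2 RIP against 3.89 and 14.7 RPKM in AI IgG (-3.32, limma adjusted p = 0.133). IgG replicates were far apart, since 39 of the 73 members were listed at 0 in AI IgG replicate 2 and 19 in AI IgG replicate 1. Without AI IgG replicate 1, 3 members were higher and 1 lower.

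In AD cells 0 of 69 members were called between EZH2 and IgG libraries, beside 0% of all genes. At an unadjusted p under 0.05 there were 0 members, beside 10.1% of all genes in either direction (limma). The member median was -0.65 on the log2 scale beside 0.43 over all genes, and in AI cells 0.21 beside 0.88. The AI median turned to -0.55 with quantile normalization. Depth is not known for these libraries. COX7A2L, among the largest differences of the RNA-seq, had 0.36 and 0.84 RPKM in AD EZH2 RIP against 3.18 and 2.39 RPKM in AD IgG (-1.60, limma adjusted p = 0.519). Between the EZH2 libraries of AI and AD cells 0 members were called, beside 0% of all genes. An unadjusted p under 0.05 was reached by 0 members and by 1.7% of all genes (limma). The EZH2 minus IgG difference, compared between AI and AD cells, was called for 0 members and 0% of all genes. At an unadjusted p under 0.05 it was higher for 9 members and lower for 1, beside 3.19% of all genes in either direction (limma). The AI IgG libraries, in which many members were listed at 0, enter this difference. The members took 0.221% and 0.425% of summed RPKM in AI EZH2 RIP against 0.357% and 0.629% in AI IgG, and 0.289% and 0.408% in AD EZH2 RIP against 0.634% and 0.695% in AD IgG, so their share was lower with the EZH2 antibody in each replicate.

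**Figure D5:**
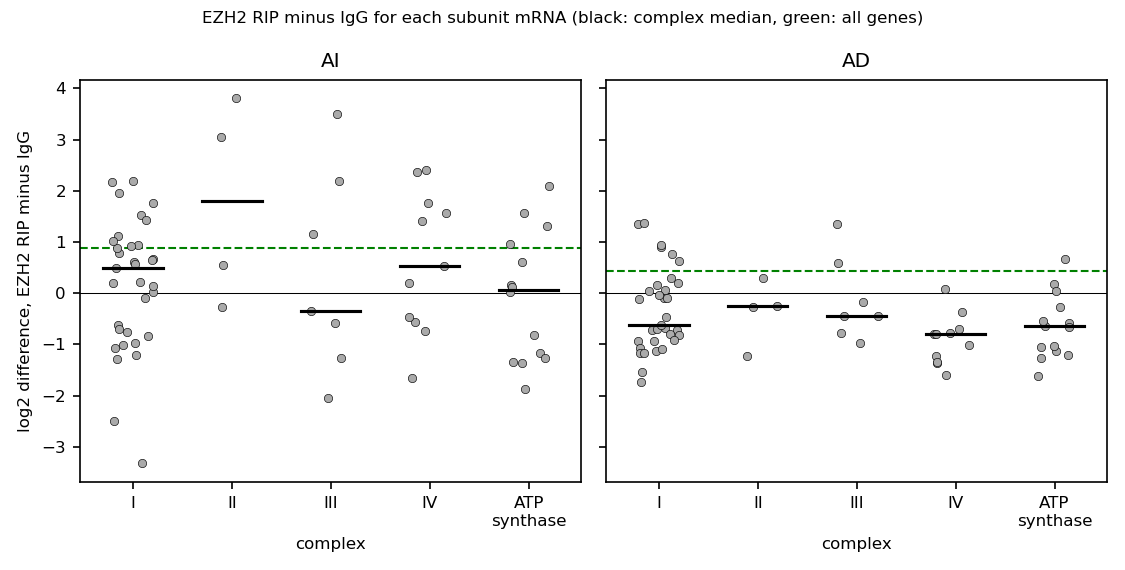
Log2 difference, EZH2 RIP minus IgG, of each of the 69 members tested (points) by complex in AI and AD cells, with the complex median in black and the median of all genes as a dashed green line. Points run from -3.32 to 3.81 in AI cells and none passed the test, and in AD cells the 5 complex medians lie below 0.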

How the data were processed

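RNA-seq of 12 libraries and RIP-seq of 8 were deposited by the authors as RPKM per gene. Per the submitters' processing notes, cutadapt, TopHat2, Bowtie2, edgeR and the build GRCh38 were used, with no versions or roles. Each of the 7 deposited ChIP peak lists has a score column, used here only to keep the better-scored part of a list. No source used here states strand use or the counting of overlapping genes.

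Genes with 0.5 RPKM in at least 2 libraries were tested on log2(RPKM + 0.5) with limma 3.58.1 in R 4.3.3 (limma-trend, two-sided, Benjamini-Hochberg over all 14227 RNA-seq or 13667 RIP genes, threshold 0.05), with all libraries of an assay in 1 fit and 11 comparisons. The siEZH2 minus mock and the EZH2 minus IgG differences were also compared between AI and AD cells. Fold changes on this scale understate those of low genes. The test was tried on simulated data. RPKM gives no library total, and steps in the low values settled relative depth for 3 of the 11 other RNA-seq libraries, so no count test was run. Tables were handled with Python 3.11.15 and pandas 2.3.3, and plots drawn with matplotlib 3.10.9. A peak counted for a member when within 1 kb of its start. Starts and promoters came from RefSeq GRCh38.p14.

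The text names, by rule, the most abundant member of each complex, core subunits, isoforms with their partners, EZH2, and up to 5 rises and 5 falls per comparison among called members of at least 1 RPKM whose groups did not overlap. NDUFA4, NDUFS4, UQCRB and the members of small counts or the extremes of level are named outside the rule, after their values were seen. Members and lists were chosen with earlier results of these data known. Alternatives were pseudocounts of 0.1 and 1, no filter, quantile normalization, trimmed mean scaling, rescaling without mitochondrially encoded genes, the compared groups alone, replicate blocks and each library left out. Groups follow sample titles. Some items are not reported here.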

Additional observations from a re-analysis of the deposited data

Results flagged for a closer look

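The results here are those where the AI minus AD difference was not the same in mock and in untreated libraries, by limma's test of the difference between the 2 differences. It was more positive in mock libraries for 24 members and more negative for 5, of 70 tested, beside 8.99% and 41.2% of all genes. The most positive were COX6A1, another small subunit of complex IV, with 1.82 ± 0.60 on the log2 scale (SE, limma adjusted p = 0.0304), COX5B with 1.76, ATP5I with 1.68, COX8A with 1.59 and NDUFB7, a membrane-arm subunit of complex I, with 1.58. Among the 5 negative ones were NDUFS1 with -0.84, NDUFV3 with -0.69, NDUFA12 with -0.55 and UQCRC2 with -0.44. Without 1 library, COX6A1, ATP5I and UQCRC2 each lost the call in 6 of 8 omissions and NDUFA12 in 2. COX6A1 had 87.6 and 94.0 RPKM in AI mock against 53.1 and 45.4 RPKM in AD mock libraries, and 67.5 and 26.3 RPKM in untreated AI against 124 and 53.6 RPKM in untreated AD cells. Mock and untreated libraries also differed in their mitochondrially encoded share, and its part in these values was not tested.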

How the results depend on the processing

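Of 2756 alternative values for 206 pairs of a named gene and a comparison, 2427 stayed on the same side of the threshold. A further 192 lost the call, 121 gained one and 16 were counted as changed in sign. The 2427 can include sign changes of values that passed the test in neither fit. Counts are given as higher and lower members. With trimmed mean scaling they were 55 and 0 for AI minus AD in mock, 54 and 0 in siEZH2, 3 and 6 in untreated libraries, 12 and 13 for mock minus untreated in AD cells, 49 and 0 for the difference between mock and untreated, and 1 lower for mock minus untreated in AI cells. With quantile normalization they were 4 and 6 in untreated libraries, 12 lower for mock minus untreated in AD cells and 3 lower for the difference. Without mitochondrially encoded genes the lower counts were 5 in untreated libraries, 7 in siEZH2, 11 for mock minus untreated in AD and 8 in AI cells, and 8 for the difference. Without the filter they were 1 lower in untreated libraries and 11 and 3 for the difference. With the compared groups alone they were 53 higher in mock, 52 and 5 in siEZH2, 2 and 0 in untreated libraries, 6 and 11 for siEZH2 minus mock in AI cells, 2 lower for mock minus untreated in AD cells, and 12 and 2 for the difference. The replicate numbers share no stated source, so the replicate block is given only here: 5 lower in untreated libraries, and 2 and 3 for EZH2 minus IgG in AI cells. Same-numbered libraries correlated at 0.7 in untreated libraries, 0.06 in mock ones and 0.71 in EZH2 RIP of AI and AD cells, where the block called 0 members. The next 2 alternatives were chosen after seeing the data. A replicate block within each experiment gave 52 higher in mock, 6 lower in siEZH2, 17 and 15 in untreated libraries, 2 and 8 for siEZH2 minus mock in AI cells, and 46 and 8 for the difference. Without both untreated replicate 2 libraries there were 18 and 12 in untreated libraries, 18 lower for mock minus untreated in AD and 8 in AI cells, and 42 higher for the difference. Leaving out 1 library at a time gave 23 to 26 and 2 to 2 in mock, 17 to 23 and 2 to 4 in siEZH2, 6 to 15 and 1 to 12 in untreated libraries, 15 to 32 and 2 to 9 for mock minus untreated in AD and 35 to 50 and 2 to 6 in AI cells, 10 to 40 and 2 to 6 for the difference, 0 to 3 and 0 to 1 for EZH2 minus IgG in AI cells and 0 to 0 for the rest. The sign changes so counted with quantile normalization were ATP5B at -0.45 in mock and -0.43 in siEZH2, NDUFS1 at 0.0074 and UQCRFS1 at 0.45 in siEZH2, and NDUFS5 at 0.37 and SDHC at -0.011 for mock minus untreated in AD cells. With trimmed mean scaling they were NDUFS1 at 0.38 and SDHA at 0.48 in mock, NDUFV3 at 0.026, NDUFS1 at 0.12, SDHA at 0.48 and SDHC at 0.36 in siEZH2, and NDUFA12 at 0.11 and UQCRC2 at 0.22 for the difference. Without mitochondrially encoded genes NDUFS1 was at -0.15, and without both untreated replicate 2 libraries ATP5G2 was at -0.28, for mock minus untreated in AI cells. Within 5 kb of a peak were 3 members for EZH2 in AI and 18 and 8 in AD cells, and 8 and 9 in AI and 6 and 4 in AD cells for H3K27me3, beside 7.09%, 29.3%, 10.6%, 11.97%, 20.5%, 12.1% and 13.1% of all starts in the same order. With the start inside a peak, or with the upper part of a list by score, AD EZH2 peaks held 0 and 0 members, and 1 member was left for AD H3K27me3 replicate 1 by score. The causes of these shifts were not tested. With 2 libraries a group and depth unknown, the calls rest on a spread shared by all genes and groups.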

Other observations

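NDUFA4L2, a paralog of NDUFA4 that hypoxia is known to induce and that the naming rule leaves out, differed between the lines far more than any member. It had 53.2 and 52.4 RPKM in AI mock against 804 and 883 RPKM in AD mock libraries (log2 difference -3.98 ± 0.11 SE, limma adjusted p = 4.27e-08). In untreated libraries it had 1.76 and 2.16 RPKM in AI cells against 482 and 449 RPKM in AD cells (-7.57, limma adjusted p = 4.69e-10). NDUFA4 itself was higher in AI mock, as given above. It was named after its values were seen.

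Genes outside the chain also had an AI minus AD difference of another sign in mock and untreated libraries. EZH2 had 7.07 and 5.44 RPKM in AI mock against 10.9 and 12.5 RPKM in AD mock libraries, and 10.1 and 12.6 RPKM in untreated AI against 5.21 and 6.94 RPKM in untreated AD cells. KLK3, the luminal marker, had 2322 and 2320 RPKM in AI mock against 1912 and 1726 RPKM in AD mock libraries, and 1600 and 1286 RPKM in untreated AI against 5055 and 3469 RPKM in untreated AD cells.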
